A study of Mus musculus with 12 samples.

Results

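Heat shock proteins and their partners fold new proteins, refold damaged ones and pass those beyond repair to degradation. The genes described here are those whose name in the scanner files begins with Hsp, Dnaj, Cct2 to Cct8 or Pdia, together with Canx and Calr and without the proteoglycan gene Hspg2. This rule took 148 of 41174 probes, which stand for 80 genes. It goes by name alone, so it also takes in Tmem208 (named Hspc171 on the array) and Hspbap1, which are not heat shock proteins. After removal of dim probes, 59 of the 80 genes were among the 10898 genes compared.

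Neurons were taken by laser capture from the medial (MEC) and the lateral (LEC) entorhinal cortex of female C57BL/6 mice aged 2 months. Mutants were Naglu-/-, which lack the lysosomal enzyme that removes N-acetylglucosamine from heparan sulfate and serve as a model of Sanfilippo syndrome type B (MPSIIIB), and controls were Naglu+/- littermates that keep 1 intact copy, so no wild-type animal was included. Each region had 3 pairs of mutant and control, with 500 neurons per region cut from Nissl-stained sections 12 µm thick, and each pair's amplified RNA was hybridised to 2 Agilent arrays with the dyes swapped, 12 arrays in all. Whether a mouse gave neurons to both regions is not stated in the labels. Naglu is missing from every cell of the mutants, and captured cell bodies can carry RNA of neighbouring cells.

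Median signals of the 12 arrays lay between 67 and 92.5 for Cy3 and between 44.4 and 54.9 for Cy5, so the Cy5 readings set the limit of detection. The 5 pan-neuronal markers looked for were all measured, 3 of them in all 24 readings (12 arrays with 2 dyes each), and 3 excitatory markers and 5 of 5 inhibitory markers were measured too. Markers of glia were also present: 5 of 7 for astrocytes (not Gfap and Aqp4), 6 of 7 for oligodendrocytes and 9 of 10 for microglia and macrophages. The sign of the ratios in replicate 2 of both regions is not settled: the authors' value table, followed here, opposes the labelled dyes. With the table's sign the lysozyme gene Lyz2 read 1.67, 1.80 and 1.89 in the MEC pairs and 1.17, 2.50 and 1.64 in the LEC pairs, on the log2 scale of mutant over control. Results are therefore also given with replicate 2 turned as labelled. MEC and LEC arrays were scanned on different days and at different resolutions (10 and 5 µm per pixel), so region and scan cannot be told apart.

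HSP70 proteins (the Hspa genes) bind exposed hydrophobic stretches in a cycle driven by ATP. J proteins (the Dnaj genes) bring them clients and start ATP hydrolysis, and HSP110 proteins (Hsph1, Hspa4, Hspa4l) release the nucleotide. HSP90 finishes the folding of signalling proteins, the CCT ring folds actin and tubulin, Hspd1 and Hspe1 form the folding chamber of mitochondria, and small heat shock proteins hold unfolded proteins in solution. In the endoplasmic reticulum (ER), Hspa5 (BiP), Hsp90b1 (GRP94), the lectins Canx and Calr and the disulfide isomerases (Pdia) handle secreted and lysosomal proteins. Unfolded protein in the cytosol activates HSF1, which binds heat shock elements made of GAA and TTC units, and unfolded protein in the ER activates ATF6 and XBP1, which act through the ER stress element.

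Matches to these elements are shown here to group members by promoter sequence. A match does not show that a member responds to unfolded protein. Promoters came from RefSeq (GRCm38.p6), and 67 of the 80 genes were in the table; Cct4, Dnajc11, Dnajc12, Dnajc18, Dnajc2, Dnajc5, Dnajc5b, Hsp90aa1, Hsp90ab1, Hspa8, Hspa9, Hspb2 and Tmem208 were not. The 250 bases before each start site were searched on both strands. An ER stress element, written as CCAAT, 9 free bases and CCACG, lay before 6 of the 67 members (8.96%), beside 0.13% of all genes and 0.113% of all 32851 promoters (37). In the following stretches, read 5′ to 3′ on the gene's strand, capitals mark CCAAT and CCACG or their reverse complements.
Hspa5 (chr2:34772005-34772063, plus strand): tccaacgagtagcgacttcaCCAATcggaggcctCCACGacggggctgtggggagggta
Canx (chr11:50325780-50325838, minus strand): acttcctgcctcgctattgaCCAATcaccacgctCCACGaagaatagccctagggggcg
Calr (chr8:84847055-84847113, minus strand): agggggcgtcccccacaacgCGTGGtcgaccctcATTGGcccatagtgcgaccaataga
Pdia6 (chr12:17266471-17266529, plus strand): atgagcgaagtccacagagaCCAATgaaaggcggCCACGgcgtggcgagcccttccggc
Dnajc3 (chr14:118937807-118937865, plus strand): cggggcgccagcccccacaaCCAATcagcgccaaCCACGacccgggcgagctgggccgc
Hsp90b1 (chr10:86705513-86705676, minus strand, 2 elements): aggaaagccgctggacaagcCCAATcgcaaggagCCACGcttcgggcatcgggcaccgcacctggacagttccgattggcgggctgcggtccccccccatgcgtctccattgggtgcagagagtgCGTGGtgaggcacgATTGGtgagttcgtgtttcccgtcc

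A heat shock element of 3 alternating units with 2 free bases between units lay before 3 of 67 members (4.48%; Dnajb6, Hspd1 and Hspe1), beside 0.514% of all genes and 0.466% of all promoters (153). The start sites of Hspd1 and Hspe1 lie 216 bases apart on opposite strands and share 1 element. The looser form of 2 inverted units, GAANNTTC or TTCNNGAA, which the longer form contains, lay before 15 of 67 members (22.4%), beside 14.5% of all genes and 12.8% of all promoters. Capitals mark the GAA and TTC units below. Of the 11 measured members with the looser form, Cct5, Dnaja4 and Dnajc10, on which no result turns, are not printed. A match of letters says nothing about binding in these neurons.
Hspe1 with Hspd1 (chr1:55088039-55088096, strand of Hspe1): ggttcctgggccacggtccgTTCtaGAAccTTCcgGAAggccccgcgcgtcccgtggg
Dnajb6 (chr5:29735832-29735884, plus strand): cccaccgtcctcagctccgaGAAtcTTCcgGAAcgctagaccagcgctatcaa
Hsph1 (chr5:149636342-149636389, minus strand): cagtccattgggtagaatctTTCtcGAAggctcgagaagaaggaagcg
Hspa1a (chr17:34972233-34972280, minus strand): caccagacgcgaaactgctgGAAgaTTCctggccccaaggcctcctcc
Dnaja1 (chr4:40722324-40722371, plus strand): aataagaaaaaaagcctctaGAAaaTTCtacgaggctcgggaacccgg
Dnajb4 (chr3:152193846-152193879, minus strand): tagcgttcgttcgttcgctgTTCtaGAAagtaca
Cct2 (chr10:117063390-117063437, minus strand): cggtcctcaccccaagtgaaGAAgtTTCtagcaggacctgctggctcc

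Detection followed the families. All 3 HSP90 genes, both mitochondrial chaperonins, both lectin chaperones and all 4 type A J proteins were kept, as were 11 of 13 HSP70 and HSP110 genes, 17 of 21 type C and 8 of 13 type B J proteins and 6 of 8 CCT genes. Of the small heat shock proteins only 2 of 7 were kept (Hspb7 and Hspb9), and of the disulfide isomerases 2 of 5 (Pdia3 and Pdia6). To be kept, a gene needed 4 or more of the 6 readings from a region and genotype well above background at one of its probes. Of those 6, 3 are in Cy5, so a transcript seen in Cy3 alone cannot pass. Among the 21 genes not kept, 19 had no Cy5 reading. Hspb1, the main small heat shock protein of stressed cells, was well above background in 12 of 12 Cy3 and 0 Cy5 readings, the stress-induced Hspa1b in at most 11 and 0, and the ER isomerase Pdia4 in 8 and 0. These genes were not measured here, which does not show that they were silent. One of the Hspb1 probes lies on chromosome 13 (mm8), away from the gene's other probe on chromosome 5. No member was saturated.

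**Figure D1:**
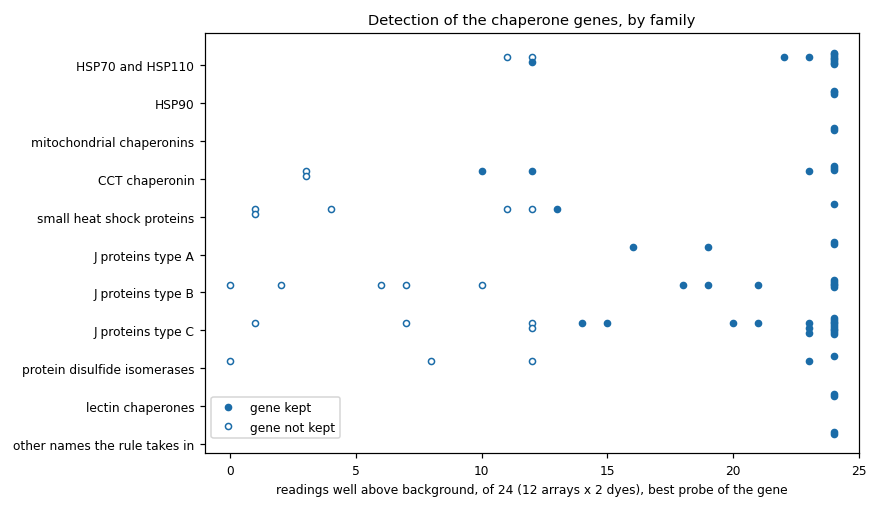
Readings well above background, of 24, at the best probe of each of the 80 genes (points), by family; filled points are the 59 genes kept and open points the 21 not kept. The best probe of 39 genes was read in all 24, while 5 of the 7 small heat shock proteins were not kept.

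The comparison of mutant with control asked whether neurons without Naglu carry more or less chaperone RNA. No chaperone gene passed the test. Whether MEC, LEC, their average or the difference between them was tested, 0 of 59 members passed limma's test at an adjusted p of 0.05. Nor did any other gene (0% of all genes). By that test the smallest adjusted p of any gene was 0.4 in MEC, 0.975 in LEC and 0.1 in the average. Lyz2, with log2 ratios of 1.17 to 2.5 in the pairs, was not called either. The result of 0 of 59 therefore does not show that chaperone RNA was unchanged. At an unadjusted p under 0.05 the members again numbered 0 in all 4 comparisons, against 1.13% of all genes in MEC, 1.56% in LEC, 2.23% in the average and 0.541% in the difference. The members' median log2 ratio was −0.001 in MEC and −0.013 in LEC, beside −0.004 and 0.005 over all genes. Averaged over both regions, the fitted ratios ran from −0.17 to 0.16, with 28 of 59 above 0, beside 50.5% of all genes. With replicate 2 turned 39 of 60 were above 0, and the median was 0.021 for the members and 0.018 for all genes. In sampled tissue of this kind, fewer cells of a type and less RNA per cell cannot be told apart. Below, a ratio is log2 of mutant over control, listed for pairs 1, 2 and 3, and SE is the standard error of the fit with n = 3 pairs per region.

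Among the HSP70 proteins the constitutive Hspa8 (probe at chr9:40555660-40555719, build mm8) had the widest spread, with −0.15, −0.24 and 1.20 in MEC and 0.14, 0.23 and −0.49 in LEC. A single MEC pair was high, and the MEC mean of 0.27 (SE 0.28) did not exceed the spread between pairs. The arrays of that pair read 0.56 and 1.84, and a second, much dimmer Hspa8 probe read 0.08 in it. The stress-induced Hspa1a, whose near-identical copy Hspa1b may share its signal, read 0.05, 0.10 and 0.03 in MEC and −0.08, 0.44 and −0.05 in LEC. Its other probe gave 0.39 in the high pair, LEC 2. In LEC 2 the mean ratio was also 0.54 for the 5 measured astrocyte markers and 0.60 for the 5 interneuron markers. It was 0.59 for microglia and macrophages and 0.70 for blood, choroid plexus and meninges. Excitatory markers averaged 0.28 there, oligodendrocyte markers 0.24, and pan-neuronal and vessel markers 0.02 each. The part of any list in the result was not tested.

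The ER member Hspa5 read −0.01, −0.33 and 0.42 in MEC and 0.00, 0.14 and −0.32 in LEC, and the mitochondrial Hspa9 (mortalin) −0.22, −0.31 and 0.51, then 0.01, 0.43 and −0.57. Both had pairs on either side of 0 in each region. The HSP110 gene Hsph1 read −0.10, 0.18 and 0.61 in MEC and 0.01, 0.31 and −0.18 in LEC, a MEC mean of 0.23 (SE 0.15, unadjusted p = 0.163). Hspa2, an HSP70 best known from germ cells, averaged −0.08 over both regions with −0.64 in MEC 2, and the nucleotide exchange factors Hspa4 and Hspa4l averaged −0.01 and 0.02. In LEC 1, Hspa4 rests on 1 array, since its spot was an outlier on the other. Hspa12a, a distant HSP70 relative of the brain, averaged −0.05.

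HSP90 genes gave small averages of mixed sign by pair. Hsp90ab1, the constitutive cytosolic form, read 0.16, −0.17 and 0.43 in MEC and 0.16, 0.14 and −0.12 in LEC, 0.10 (SE 0.08) on average. The inducible form Hsp90aa1 read 0.01, 0.40 and −0.28, then 0.02, −0.19 and 0.18. Its ratio depended on the dye: with the mutant in Cy5 it lay below 0 on 6 of 6 arrays (mean −0.37), and with the mutant in Cy3 above 0 on 6 of 6 (mean 0.42), which cancels in the pair means. The ER form Hsp90b1 read 0.09, −0.02 and 0.22 in MEC, above 0 in 2 of 3 pairs, and −0.14, 0.43 and −0.39 in LEC.

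The mitochondrial chamber genes had different pair values, and share the promoter element printed above. Hspd1 (HSP60) read −0.11, −0.39 and 0.54 in MEC and 0.20, 0.37 and −0.46 in LEC. Its lid Hspe1 (HSP10) stayed closer to 0, with −0.16, −0.13 and 0.09, then −0.12, −0.21 and 0.03, an average of −0.08 (SE 0.06, unadjusted p = 0.173). Of the CCT ring, 6 genes averaged between −0.02 and 0.02. Cct7 read 0.02, −0.30 and 0.33 in MEC and −0.07, 0.29 and −0.36 in LEC. Cct5 was fitted with 2 LEC pairs, since both arrays of LEC 1 had outlier spots.

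Dnajb6, which keeps aggregation-prone proteins soluble, was the member with the smallest p in the average over both regions, with the table's direction. It read 0.06, 0.09 and 0.07 in MEC and 0.12, 0.16 and 0.03 in LEC, above 0 in 6 of 6 pairs, 0.09 on average (SE 0.04, unadjusted p = 0.0671). The evenness does not extend to single arrays. With the mutant in Cy5 its ratio was 0.17 to 0.37 on all 6 arrays, and with the mutant in Cy3 it was −0.15 to −0.02 on all 6. With replicate 2 turned the average was 0.01.

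Several other J proteins, though not Dnaja2, had pairs on either side of 0 in each region. Dnaja1, a main HSP70 partner in the cytosol, read −0.40, −0.54 and 0.37 in MEC and 0.02, 0.22 and −0.45 in LEC. Dnaja2, a related type A protein, read −0.08, −0.17 and −0.07 in MEC, below 0 in all 3 pairs (mean −0.11, SE 0.06, unadjusted p = 0.122), and −0.09, 0.00 and 0.05 in LEC. Dnajb1, the classical HSP40, read −0.10, 0.00 and 0.06, then 0.14, −0.45 and 0.06. The synaptic vesicle chaperone Dnajc5 (cysteine string protein), altered in a human form of neuronal ceroid lipofuscinosis, read 0.09, −0.66 and 0.31 in MEC and 0.17, 0.23 and −0.13 in LEC. Auxilin, Dnajc6, which recruits HSP70 to strip clathrin from vesicles, read −0.13, −0.64 and 0.33 in MEC and 0.01, 0.40 and −0.98 in LEC.

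Dnajc19, a part of the mitochondrial import motor, read −0.35, −0.20 and 0.12 in MEC and −0.33, 0.11 and −0.32 in LEC. Its average of −0.16 (SE 0.09, unadjusted p = 0.103) had 4 of 6 pairs below 0, and was −0.13 (unadjusted p = 0.13) with replicate 2 turned. Dnajc15, another J protein of mitochondrial import, named after its values were seen, ran the other way in several pairs, with −0.02, 0.16 and −0.57, then −0.07, −0.61 and 0.34. The 2 kept probes of Dnajc1, an ER membrane J protein, gave a difference between the regions of 0.18 (unadjusted p = 0.139, 11 of 24 readings) and −0.15 (15 of 24), opposite in sign. Dnajb9 averaged 0.00 and Dnajc3 0.02, both J proteins of the ER. Dnajb2 was not measured.

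Canx and Calr, the lectin chaperones that hold glycoproteins in the ER, had averages over both regions of opposite sign, neither past the threshold. In LEC both means were above 0. With replicate 2 turned both averages were above 0, at 0.10 for Canx and 0.02 for Calr. Canx (calnexin, probe at chr11:50137968-50138027, mm8) read 0.23, −0.12 and 0.41 in MEC and −0.02, 0.31 and 0.16 in LEC, above 0 on 10 of 12 arrays, 0.16 on average (SE 0.08, unadjusted p = 0.0798). Its second kept probe, which was dimmer, read 0.24, −0.35 and 0.50, then −0.22, 0.11 and −0.02, an average of 0.04. Calr (calreticulin) read 0.03, −0.23 and −0.50 in MEC and −0.15, −0.10 and 0.40 in LEC, means of −0.23 and 0.05 that differ by −0.28 (unadjusted p = 0.182). Pdia6 averaged 0.08 and Pdia3 0.00. The 6 genes with an ER stress element thus averaged −0.09 (Calr), −0.02 (Hspa5), 0.02 (Dnajc3), 0.03 (Hsp90b1), 0.08 (Pdia6) and 0.16 (Canx), on both sides of 0 and none past the threshold.

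**Figure D2:**
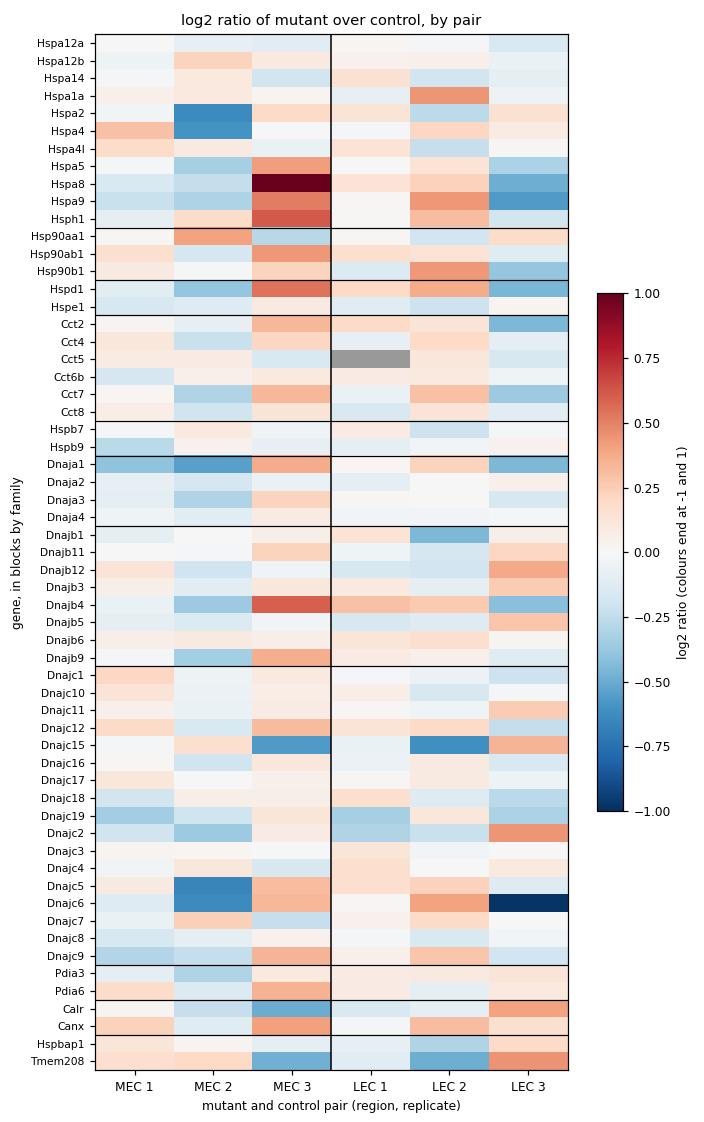
Colour gives the log2 ratio of mutant over control of each of the 59 genes (rows, in blocks by family) in each of the 6 pairs (columns); red is higher in the mutant, blue lower, grey not measured, and colours end at −1 and 1. Hspa8 at 1.20 in MEC 3 and Dnajc6 at −0.98 in LEC 3 are the most extreme cells. MEC 3 is mostly red, and 60% of all genes lay above 0 in that pair.

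Pairs of a region differed from each other more than the genotypes did on average. In MEC 3, 17 of 59 members (28.8%) lay above 0.30, where 8.01% of all genes did. There 41 of 59 members lay above 0, beside 60% of all genes. In MEC 2, 12 members (20.3%) lay below −0.30, beside 8.18% of all genes. LEC 3 had 11 of 59 (18.6%) below −0.30, beside 5.68%, and LEC 2 had 7 (11.9%) above 0.30, beside 7.23%. In MEC 1 and LEC 1 no member exceeded 0.30, and 2 and 1 fell under −0.30. Brightly read genes vary more, so the members read in all 24 readings were set beside all such genes: 16 of 39 (41%) lay above 0.30 in MEC 3 against 13.5% of 5061, 8 (20.5%) below −0.30 in MEC 2 against 12.2%, and 11 (28.2%) below −0.30 in LEC 3 against 10.9%. The value of 0.30 was chosen after the ratios were seen, a single pair has no replicate, and no test was made.

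Of the 59 members 9 (15.3%) were below 0 in MEC 2, above 0.30 in MEC 3, above 0 in LEC 2 and below −0.30 in LEC 3, where 1.72% of all genes and 3.4% of the 5061 read in all 24 readings were. They were Cct2, Cct7, Dnaja1, Dnajb4, Dnajc6, Hspa5, Hspa8, Hspa9 and Hspd1. These conditions were set after the ratios were seen, and no test was made. Tmem208 read 0.17, 0.20 and −0.48 in MEC and −0.11, −0.49 and 0.45 in LEC, with each sign opposite to that group in pairs 2 and 3. In MEC 2, MEC 3, LEC 2 and LEC 3, astrocyte markers averaged −0.14, 0.20, 0.54 and −0.33, oligodendrocyte markers −0.19, 0.26, 0.24 and −0.08, and pan-neuronal markers −0.27, 0.07, 0.02 and −0.03. All 3 lists have the signs of these 9 chaperones in the 4 pairs, and the other lists do not. Excitatory markers averaged −0.15, −0.09, 0.28 and −0.09, and inhibitory markers −0.21, −0.06, 0.60 and −0.04. Microglia and macrophage markers averaged 0.41, 0.36, 0.59 and 0.35, and vessel markers 0.06, 0.09, 0.02 and 0.04. Markers of blood, choroid plexus and meninges averaged 0.05, −0.53, 0.70 and −0.50. The part of any list in the pattern was not tested.

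Since the pattern has opposite signs in replicates 2 and 3, the direction of replicate 2 decides what a mean over pairs shows. With replicate 2 turned as labelled, 0 genes of any kind passed the adjusted threshold, and the smallest adjusted p of a member was 0.28. Unadjusted, 13 of 60 members had p under 0.05 in MEC where 11.2% of all genes did, 5 in LEC beside 9.88%, 4 in the average beside 12% and 13 in the difference between regions beside 9%. By limma's test, the turned MEC means were 0.25 for Hspa5 (unadjusted p = 0.0355), 0.25 for Hsp90ab1 (unadjusted p = 0.0199), 0.25 for Canx (unadjusted p = 0.0347), 0.22 for Pdia6 (unadjusted p = 0.00648) and 0.35 for Dnajc5 (unadjusted p = 0.0188). Hsp90aa1 lay on the other side at −0.22 (unadjusted p = 0.0335). In LEC the turned mean of Hsp90b1 was −0.32 (unadjusted p = 0.00307) and that of Cct7 −0.24 (unadjusted p = 0.0229). The value for Hsp90b1 is that of 1 probe. Before turning, that probe read −0.14, 0.43 and −0.39 in LEC and the second kept probe −0.14, −0.06 and 0.06. The members' median was then 0.078 in MEC, beside 0.031 over all genes, and −0.027 in LEC, beside 0.001.

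In that direction 5 of 60 members (Cct4, Cct7, Cct8, Dnajc16 and Hsp90b1) were above 0 in all 3 MEC pairs and below 0 in all 3 LEC pairs, and 3.99% of all genes had all pairs of 1 region on one side of 0 and all pairs of the other on the opposite side. Second kept probes lacked these signs for Hsp90b1 (−0.29 in MEC 1) and for Dnajc16 (0.10 in LEC 3, at a dimmer probe). Cct7 then read 0.02, 0.30 and 0.33 in MEC and −0.07, −0.29 and −0.36 in LEC, a difference of 0.46 (adjusted p = 0.549). With the table's direction 0 of 59 members and 0.789% of all genes had such opposite signs. Without replicate 2 of both regions the members' median was 0.057 in MEC and −0.021 in LEC, and 0 passed.

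**Figure D3:**
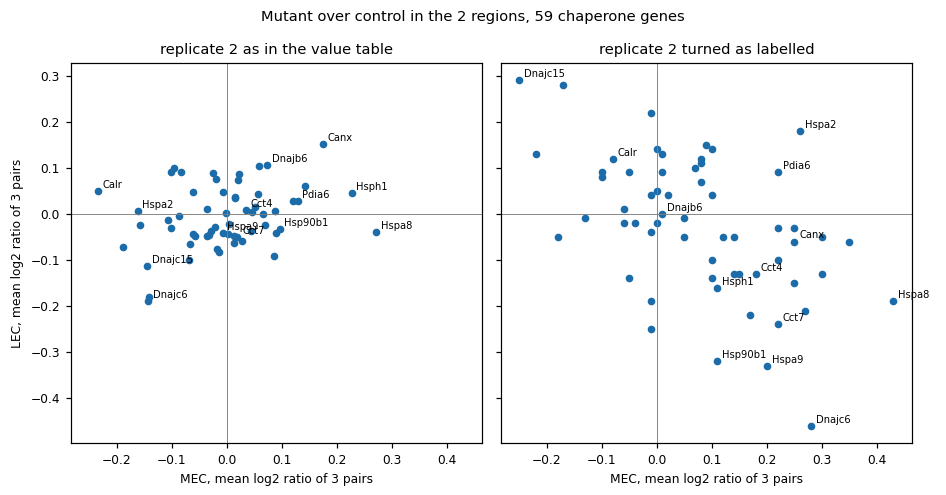
Each point is 1 of the 59 chaperone genes, at its mean log2 ratio of mutant over control in MEC (horizontal) and LEC (vertical), 3 pairs each; on the left replicate 2 has the sign of the value table, on the right that of the labelled dyes. Hspa8 moves from 0.27 in MEC and −0.04 in LEC to 0.43 and −0.19, and Dnajc6 in LEC from −0.19 to −0.46.

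The comparison of the regions asked how chaperone levels differ between MEC and LEC neurons, whatever the genotype. Levels are log2 intensities averaged over both dyes and quantile-normalised between arrays. Dim signals are compressed, since an offset of 50, or 5.64 on this scale, was added. Of the 59 members 15 passed the adjusted threshold (25.4%), where 25.6% of all genes did, so the members were called no more often than other genes. Higher in MEC were 11 members (18.6%), beside 11.6% of all genes, and lower in MEC were 4 (6.78%), beside 14.1%. The split depends on scaling: with each array scaled to its 75th percentile, 26 members passed, 2 higher and 24 lower in MEC. That scaling moved the median of all genes from −0.02 to −0.11 and that of the 5061 genes with all 24 readings from 0.00 to −0.31. Of the 15 members, 11 kept their sign as measured, 13 relative to the former median and 15 relative to the latter. As said above, region and scan cannot be told apart in any of these differences.

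Dnajc9, Hspa4l and Dnajb6 passed in all 17 alternative analyses, including the control channels alone and the mutant channels alone. Dnajc9 (mm8 chr14:19173513-19173572), a J protein that also escorts histones, had levels of 8.32, 8.17 and 8.08 in MEC and 7.20, 7.01 and 7.46 in LEC. All MEC pairs lay above all LEC pairs, and the difference was 0.97 (SE 0.11, 1.96-fold, adjusted p = 0.00149). Between 0.57 and 1.31 was found over the alternatives. Its other probe was too dim to be kept.

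Hspa4l (mm8 chr3:40886062-40886121), an HSP110 protein of brain and testis, read 7.35, 7.24 and 7.19 in MEC and 6.76, 6.73 and 6.77 in LEC, 0.50 higher in MEC (SE 0.05, 1.42-fold, adjusted p = 0.00115). The groups did not overlap, and 2 further kept probes of Hspa4l gave 0.41 and 0.37. Dnajb6 (mm8 chr5:30117108-30117167) went the other way, with 7.15, 7.14 and 7.07 in MEC and 7.49, 7.50 and 7.46 in LEC, −0.37 (SE 0.05, 1.29-fold lower in MEC, adjusted p = 0.00195). Its second kept probe read 0.07, so the probes of Dnajb6 disagree. That probe was dimmer, at a mean level of 6.23 against 7.30, and so nearer the offset of 5.64 that compresses dim signals.

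Further members higher in MEC by quantile scaling included Hspa9 at 8.18, 8.08 and 8.08 in MEC and 7.65, 7.51 and 7.49 in LEC (0.56, SE 0.06, adjusted p = 0.00109). Dnaja1 read 7.89, 7.90 and 7.87 against 7.42, 7.37 and 7.43 (0.48, SE 0.04, adjusted p = 0.000708). Its 2 other kept probes read 0.02 each, but were dim, at mean levels of 6.23 and 6.07. Hspa4 read 10.01, 9.89 and 9.85 against 9.39, 9.44 and 9.5 (0.48), and its other kept probe, dim at a mean level of 6.16, −0.03. Auxilin, Dnajc6, read 8.67, 8.54 and 8.59 against 8.21, 7.83 and 7.84 (0.64, SE 0.10, adjusted p = 0.0043). The rest were the mitochondrial J protein Dnaja3 (0.40), Dnajc12 (0.32), Dnajb4 (0.30), Hspa14 (0.22), a ribosome-bound HSP70, and the splicing-related Dnajc8 (0.20, with 0.19 at a second probe). With 75th percentile scaling none of these 9 passed as higher in MEC, and Hspa14 passed as lower at −0.24.

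Lower in MEC, and so with 75th percentile scaling too, were Hspa2, Dnajb1 and Hsph1. Hspa2 (mm8 chr12:77325538-77325597) read 6.28, 6.48 and 6.45 in MEC and 6.89, 6.85 and 6.99 in LEC, −0.51 (SE 0.07, adjusted p = 0.00238). Dnajb1 (mm8 chr8:86501866-86501925) read 8.87, 8.97 and 8.88 against 9.13, 9.32 and 9.30, −0.35 (SE 0.06, adjusted p = 0.00684). Hsph1 (mm8 chr5:149885230-149885289) read 9.73, 9.90 and 9.32 against 10.17, 10.14 and 10.24, −0.54 (SE 0.13, adjusted p = 0.0196). No MEC pair reached an LEC pair in any of these genes. With 1 genotype's channels alone none of the 3 passed: in the controls Hsph1 gave −0.63 (adjusted p = 0.121) and in the mutants −0.45 (adjusted p = 0.0649).

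**Figure D4:**
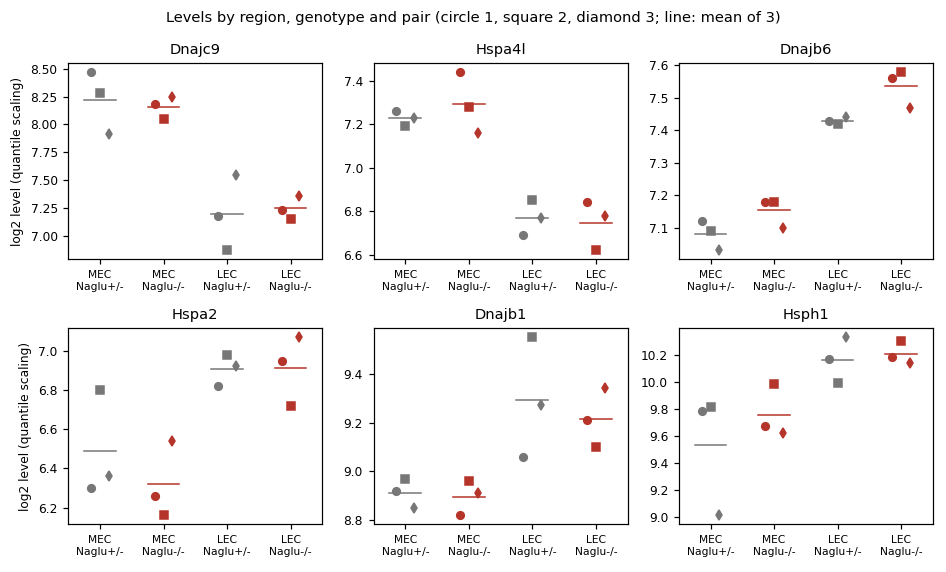
Log2 level (quantile scaling) of 6 genes in control (grey) and mutant (red) RNA of MEC and LEC; symbols mark pairs 1, 2 and 3 and lines the mean of 3. Axes differ between panels and do not start at 0. Dnajc9 and Hspa4l are higher in MEC and the other 4 lower, in both genotypes.

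Among the other members the sign of small differences changed with scaling. By quantile scaling Hspa8 read 10.32, 10.59 and 9.91 in MEC and 10.31, 10.48 and 10.58 in LEC, overlapping (−0.18, SE 0.16), and Hsp90aa1 12.23, 12.25 and 12.19 against 12.29, 12.30 and 12.58 (−0.17, SE 0.08, adjusted p = 0.162). The 2 kept probes of Canx disagreed, at −0.12 and 0.38, with mean levels of 9.9 and 6.7. Hspa5 (0.02), Hspa1a (0.02), Hsp90b1 (0.04), Cct2 (−0.01) and Cct8 (−0.01) were close to 0 by quantile scaling, with SE of 0.05 to 0.09. With 75th percentile scaling they were −0.23, −0.34, −0.48 (adjusted p = 0.0107), −0.41 (adjusted p = 0.0108) and 0.06, and a second probe of Hsp90b1 gave −0.32 by quantile scaling. Hspe1 differed by 0.22 (adjusted p = 0.0652) and Hspd1 by 0.17 (adjusted p = 0.204), and both turned negative under 75th percentile scaling, to −0.20 and −0.30. In the remaining families the smallest p belonged to Hspb9 (−0.14, adjusted p = 0.057), Calr (0.25, adjusted p = 0.118), Cct6b (0.11, adjusted p = 0.126), Pdia3 (−0.09, adjusted p = 0.211) and Tmem208 (−0.10, adjusted p = 0.329).

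**Figure D5:**
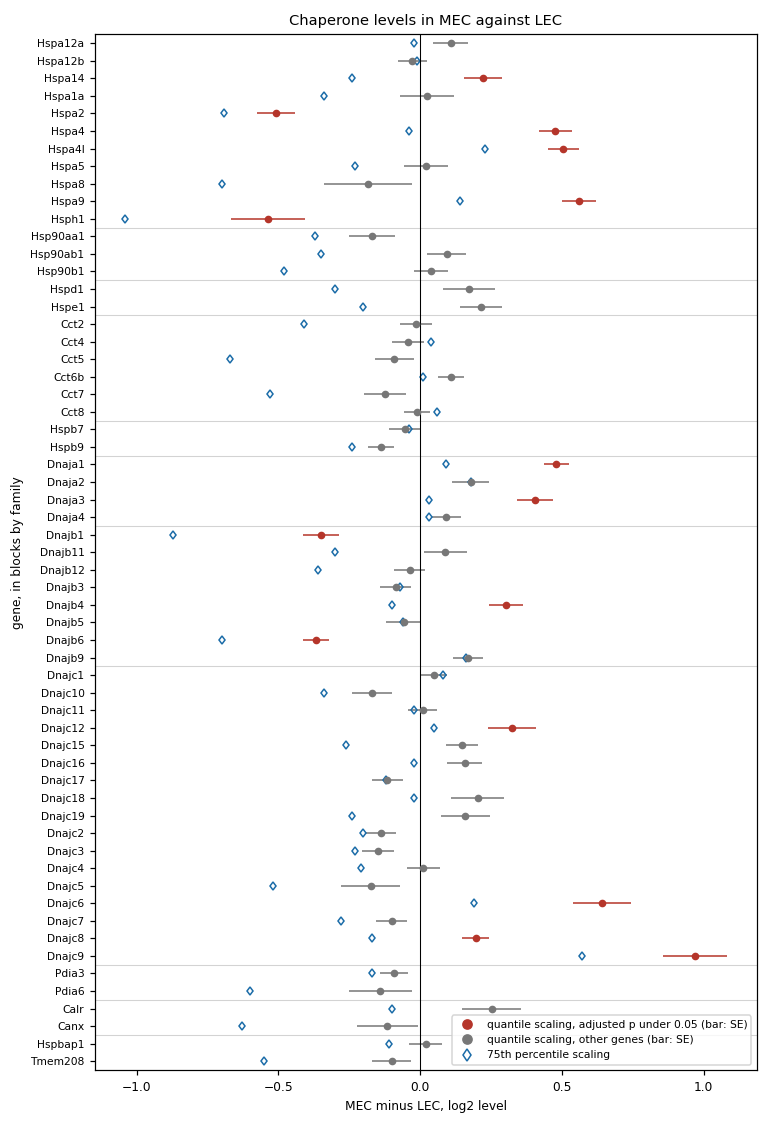
MEC minus LEC log2 level of the 59 genes, in blocks by family: circles with bars give the estimate and its SE under quantile scaling (red, adjusted p under 0.05; grey, others) and open diamonds the estimate under 75th percentile scaling. The diamonds of most genes lie to the left of the circles, and only Dnajc9 and Hspa4l are called higher in MEC under both.

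Markers of several cell types differed between the regions as well. Of the 5 measured pan-neuronal markers 4 passed as higher in MEC and 1 as lower, with a summed intensity of 2550 to 2920 in the MEC pairs and 1630 to 1820 in the LEC pairs. Of 6 measured oligodendrocyte markers 4 passed as higher and 1 as lower in MEC (1090 to 1310 against 834 to 921). Excitatory markers went the other way in sum (1550 to 2420 against 2840 to 3570), with 1 of 3 called higher and 1 lower in MEC. Of 5 inhibitory markers 3 passed as higher and 1 as lower (657 to 804 against 651 to 728). Of 5 astrocyte markers 0 passed (2400 to 2980 against 1880 to 3060). Their part in the chaperone levels was not tested.

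The partners of these chaperones, were read from a list of 65 further folding genes. Between genotypes 0 of 47 measured genes passed in any of the 4 comparisons, where 0% of all genes did. In the average over both regions 25 lay above 0, beside 50.5% of all genes. Sil1, which exchanges the nucleotide on Hspa5, averaged 0.13 (unadjusted p = 0.022). Between regions 10 of 47 passed (21.3%, beside 25.6% of all genes), 4 higher (8.51%, beside 11.6%) and 6 lower in MEC (12.8%, beside 14.1%), so these genes too were called no more often than others. These counts and the differences below are by quantile scaling alone, and for the members above the split into higher and lower depended on the scaling. Hyou1, the HSP110 of the ER, read 6.96, 7.03 and 7.05 in MEC and 7.42, 7.90 and 7.89 in LEC (−0.72, SE 0.12, adjusted p = 0.00487). Sil1 read 7.68, 7.66 and 7.60 against 8.19, 8.11 and 8.06 (−0.47, adjusted p = 0.00134). Other ER genes of these lists lay on both sides of 0, with Herpud1 at 0.24 (adjusted p = 0.0321), Manf at 0.14 (adjusted p = 0.183), Dnajb9 at 0.17 (adjusted p = 0.0515) and Sdf2l1 at −0.01. Dnajc10 lay at −0.17 (adjusted p = 0.115), Dnajc3 at −0.15 (adjusted p = 0.0932) and Pdia6 at −0.14 (adjusted p = 0.389), with −0.22 at another kept probe of Pdia6. Sdf2 (−0.25), an ER protein, and the mitochondrial protease Clpp (−0.49) were lower too, and Vbp1, a subunit of the prefoldin that serves CCT, was higher by 0.28.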

How the data were processed

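Each array's scanner text file was deposited with spot intensities (per the file headers Agilent Feature Extraction 9.5.1.1, per the submitters' processing notes 8.5.1.1) and the scanner's log10 ratio (Cy5 to Cy3), alongside the authors' table of log2 ratios, whose further processing is not given in the sources used here. That table matched each file to 1 of its columns. In 5 LEC arrays the file lies under another LEC sample's name, and in replicate 2 of both regions (4 columns) the table's sign opposes the labelled dyes. The table's assignment and direction were followed, a choice not blind to the results.

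In R 4.3.3 with limma 3.58.1, mean signals were corrected by normexp (offset 50) and loess, outlier spots left out, spots averaged per probe and the 2 arrays of a pair averaged. Levels were the mean log2 of both dyes, quantile-normalised. Probes well above background in 4 of 6 readings of a region and genotype were kept, 12987 in all, with the brightest probe per gene. All 10898 genes were fitted with lmFit and eBayes and adjusted by Benjamini-Hochberg, with a threshold of 0.05. The labels do not name separate animals beyond littermate pairs, so p-values measure the spread between these pairs, and the number of arrays limits precision. The fits were tested on simulated data.

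Genes were named by rule: a list of well-known members, members past the threshold, the 5 smallest p per comparison, the smallest p per family between regions, and up to 5 further folding genes. Members and lists were chosen with earlier results of these data known. Same-numbered MEC and LEC pairs did not deviate in the same direction (correlations of the ratios −0.179, −0.00159 and −0.359). In replicate 3 they tended to deviate in opposite directions.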

Additional observations from a re-analysis of the deposited data

How the results depend on the processing

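Between genotypes, 0 members passed in all 19 alternatives of each of the 4 comparisons. Between regions, the 15 calls became 9 without replicate 2 of both regions, 26 with 75th percentile scaling, 4 in the control channels alone and 3 in the mutant channels alone, and 12 to 16 when 1 replicate was left out in turn. With 75th percentile scaling the sign turned for 22 of 59 members, 20 of them from above to below 0. Of the 22, 8 passed under either scaling: Dnajc4 (−0.21), Dnajc15 (−0.26), Hspa4 (−0.0444), Hsp90ab1 (−0.354), Hsp90b1 (−0.483), Dnajb4 (−0.105), Dnajc8 (−0.17) and Hspa14 (−0.24). The cause was not tested. Over all alternatives the sign of named genes changed, with neither value past the threshold, in 82 of 622 values in MEC, 83 of 640 in LEC, 92 of 622 in the average, 105 of 640 in the difference and 26 of 675 between regions. The replicate block gave 16 calls between regions, with all 15 among them, and 0 between genotypes; the numbers do not pair the samples. The slide as a block was not run, since each slide holds 1 array. Dim probes, most of all in Cy5, limit what could be measured.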
